A study of Caenorhabditis elegans with 4 samples.

Results

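The insulin-like peptide genes of *C. elegans* were taken as all genes of the table whose symbol begins with *ins-*, together with *daf-28* (Y116F11B.1). There were 39 of them among the 46746 genes or sequence names in the table, and each was matched by its sequence name to the WBcel235 annotation. Total RNA came from entire bodies of wild-type animals of the Bristol strain N2. Animals of the OP50 group (n = 2) received *E. coli* OP50, the usual laboratory food, and animals of the 2004 group (n = 2) received *L. paracasei* subsp. *paracasei* 2004. Feeding lasted 3 days and began 3 days after hatching, which is Day 1 of adulthood in the study's terms. According to the labels the animals were in S basal medium, whereas the study's methods describe NGM plates. Each sample was a pool of animals, and neither source says whether the samples of a food came from separate cultures, so the p-values below measure the spread between these samples, which may be technical.

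Insulin-like peptides are small secreted proteins related to insulin. They are made as precursors, cleaved, and released mostly from neurons and the intestine, and they act on a single known insulin receptor, DAF-2. Agonists switch on a kinase cascade that keeps the FoxO transcription factor DAF-16 out of the nucleus, whereas antagonists lower the activity of the receptor. In the worm this pathway is known for its part in dauer formation, larval arrest, stress resistance and lifespan, and the question the comparison addresses is which ligand genes differed with the food in a study centred on DAF-16.

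The values were estimated read counts, and CPM expresses a gene's count per 1000000 counts of its sample. Totals lay between 44548901 and 50504029 counts, and where a gene had 0 counts the upper limit is 3 counts, or at most 0.0673 CPM, counting error only. All insulin-like peptide genes were low: the highest mean within a food was 7.14 CPM. A gene was tested when at least 2 samples reached 0.5 CPM, by the quasi-likelihood F test of edgeR on counts summed per gene. A gene was called when its Benjamini-Hochberg adjusted p-value over all 12506 genes tested was under 0.1 and its fold change was over 2.

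Over all 39 genes the summed level was 40.4 and 47.6 CPM with OP50 and 27.6 and 24.5 CPM with 2004, a ratio of means of 0.59. The foods did not overlap, and no test was run on the sum. Of the 18 tested genes, 9 were called lower in animals fed 2004, and 2, the neighbours *ins-22* and *ins-23*, were called higher. Over all genes tested, 14.8% were called lower and 7.55% higher. Within the family the largest log2 fold changes were those of *ins-7* at -3.01 and of *ins-23* at 2.35, and 16 of the 18 lay below 0 (51.4% of all genes tested). The median log2 fold change of the 18 tested genes was -0.99, and that of all genes tested was -0.028. These counts and medians describe the tested genes alone, because *ins-11* and *ins-37* reached the filter only in the OP50 samples and *ins-22* only in the 2004 samples. In 12 of the 18 genes both 2004 samples lay below both OP50 samples (33.7% of all genes tested), and in 2 genes they lay above (37.5% of all genes tested).

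**Figure D1:**
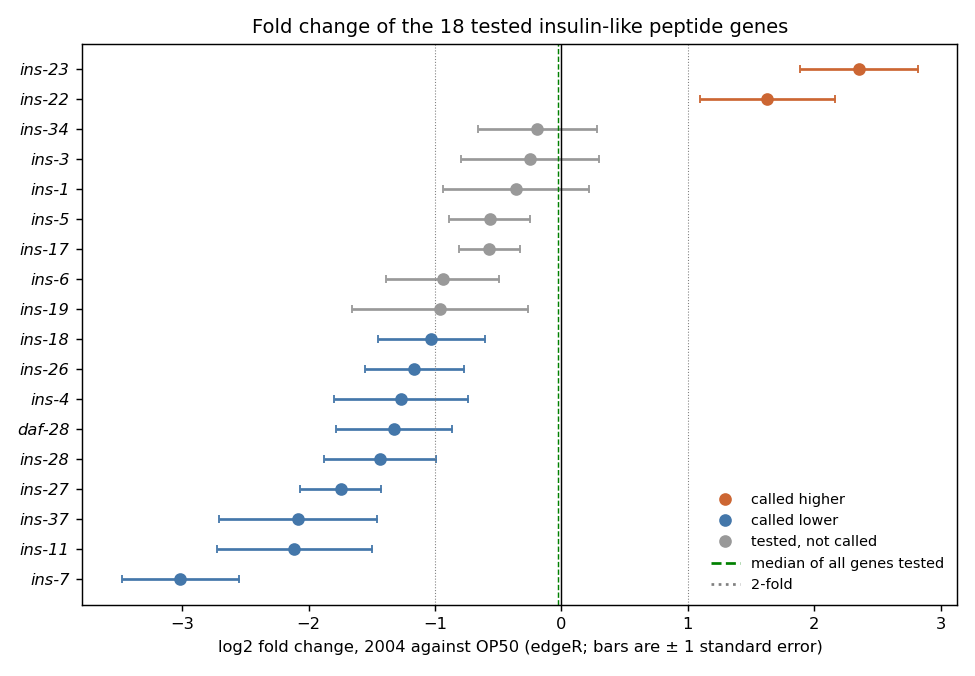
Log2 fold change of each of the 18 tested insulin-like peptide genes in animals fed 2004 against animals fed OP50, with bars of 1 standard error on each side (n = 2 samples per food). The 9 genes called lower reach from *ins-18* at -1.03 to *ins-7* at -3.01, the 2 called higher are *ins-22* and *ins-23*, and the dashed line marks the median of all genes tested at -0.028.

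Markers of tissues were compared in the same fit, in which 14.8% of all genes tested were called lower and 7.55% higher. Of the 13 neuron markers that matched out of 15 listed, 6 were called lower and 0 higher, with a median log2 fold change of -1.004. Among those called lower, *sng-1* reached the filter only in the OP50 samples. The 3 with values above 0 were *unc-119* at 0.77, *unc-10* at 0.33 and *unc-33* at 0.10. The summed level of all 13 was 334 and 348 CPM with OP50 and 296 and 295 CPM with 2004, and none of the 13 was at 0. Most of that sum was *snb-1*, at 205 and 207 CPM with OP50 and 183 and 192 CPM with 2004. Body wall muscle markers had a median of -1.53, with 5 of 7 called lower. Intestine markers had a median of 0.39, with 2 of 12 called higher and 1 lower, and germline and oocyte markers had a median of 0.27, with 0 of 10 called higher and 1 lower. That gene, *fog-3*, was the only 1 of the 10 below 0, at 0.808 and 0.891 CPM with OP50 and 0.367 and 0.194 CPM with 2004. It reached the filter only in the OP50 samples. Embryo markers had a median of 0.75, with 2 of 5 tested called higher and 0 lower, and their summed level was 6.29 and 8.26 CPM with OP50 and 12.4 and 10.03 CPM with 2004. Of the 2 called, *tbx-38* reached the filter only in the 2004 samples, at 0.755 and 0.626 CPM against 0.202 and 0 CPM with OP50. Sperm markers had a median of -0.49, with 1 of 3 tested, *spe-11*, called lower. *spe-11* reached the filter only in the OP50 samples. Hypodermis markers had a median of 0.28, with 0 of 5 tested called. Of the 12 markers of sensory cilia and amphid neurons, 3 reached the filter and *tax-2* was at 0 in every sample. Their median was -0.997, with 1, *daf-7*, called lower and 0 higher. *che-3* was at -0.997 (SE 0.57) and *odr-4* at -0.017, and neither was called. The untested markers were all under 0.5 CPM in every sample. Of these, *osm-6* had 0 CPM in both OP50 samples and 0.216 and 0.345 CPM with 2004. *odr-3* was also higher in both 2004 samples, at 0.194 and 0.173 CPM against 0 and 0.158 CPM with OP50. *tax-4* was lower in both, at 0.129 and 0 CPM against 0.180 and 0.158 CPM with OP50, and the foods overlapped in the rest. In whole-animal RNA, fewer cells of a type and less RNA per cell cannot be told apart, and the part of such shifts in the results below was not tested.

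**Figure D2:**
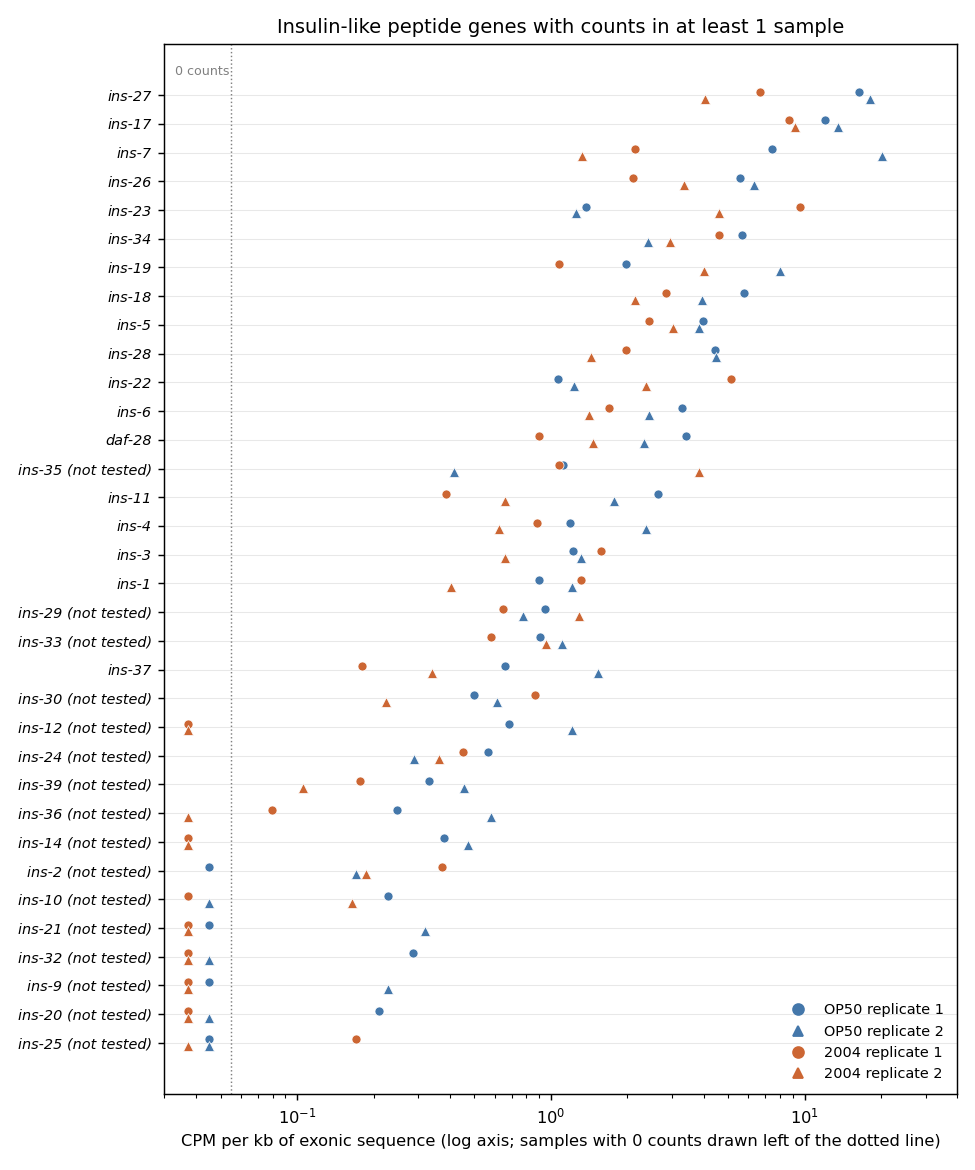
Level of the 34 insulin-like peptide genes with counts in at least 1 sample, in CPM per kb of exonic sequence on a log axis, with 1 point per sample. Genes are ordered by their mean level, from *ins-27* and *ins-17* at the top, and samples with 0 counts are drawn left of the dotted line.

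Levels can be compared between genes only per length. In CPM per kb of exonic sequence, *ins-27* (17.3), *ins-7* (13.8) and *ins-17* (12.8) had the highest means in animals fed OP50. Both samples of *ins-27*, at 16.4 and 18.1 CPM per kb, lay above both of *ins-17*, at 12.05 and 13.6. The samples of *ins-7*, at 7.45 and 20.2 CPM per kb, lay on either side of these, so its place in the order was within the spread between samples. In animals fed 2004 the order was *ins-17* (8.91), *ins-23* (7.08) and *ins-27* (5.36), and *ins-7* had a mean of 1.74. The samples of *ins-17* in animals fed 2004, at 8.64 and 9.18 CPM per kb, lay within the range of *ins-23*, at 9.55 and 4.61, and above both samples of *ins-27*, at 6.68 and 4.04. As a share of all insulin-like peptide counts, *ins-7* held 7.78% and 17.9% with OP50 and 3.29% and 2.29% with 2004.

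*ins-7* (ZK1251.2) lies on chromosome IV from 9682011 to 9682845 on the - strand. It encodes an agonist of DAF-2 that is made in the intestine and in neurons, and its own expression is known to be lowered by active DAF-16. It was at 3.14 and 8.51 CPM with OP50 and at 0.906 and 0.561 CPM with 2004. The OP50 samples differed from each other more than 2-fold, but both lay above both 2004 samples. Its change on the log2 scale was -3.01 (standard error, SE, 0.46, adjusted p = 0.000772, edgeR). Without OP50 replicate 2 it was -2.24 and still called. The adjacent *ins-8* had 0 counts in all 4 samples. All *ins-7* counts were assigned to transcript ZK1251.2a and none to ZK1251.2b. With transcripts tested as deposited, 2 transcripts of the family were called lower, those of *ins-7* and *ins-27* (7.13% of all transcripts tested), and 1, that of *ins-23*, was called higher (4.24%).

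*ins-11* (C17C3.4, chromosome II, 5556731 to 5557173) encodes an intestinal peptide known to be induced by pathogenic bacteria and to act on the avoidance of them. Its level fell from 1.03 and 0.693 CPM with OP50 to 0.151 and 0.259 CPM with 2004 (log2 fold change -2.11, SE 0.61, adjusted p = 0.0206, edgeR), and the foods did not overlap. The 2004 values rest on 7 and 12 counts, and *ins-11* reached the filter only in the OP50 samples. It was not tested where 10 counts were required in every sample. Its neighbour *ins-12* had 10 and 20 counts with OP50 and 0 in both 2004 samples. Its OP50 mean was 4.79-fold the level of a floor of 3 counts in each 2004 sample. That ratio leaves out the counting error of the OP50 samples. *ins-12* did not reach the filter. Without a filter it was called, with an adjusted p-value of 0.0571 (edgeR). *ins-13*, the other gene of this cluster, had 0 counts throughout. Between *ins-13* and *ins-11* lie C17C3.5 and *acdh-2*, an acyl-CoA dehydrogenase gene that overlaps *ins-13* on the same strand. They were lower, at -5.21 for C17C3.5 (SE 0.53, 4.40 kb from *ins-11*) and -4.54 for *acdh-2* (SE 0.34, 9.24 kb from *ins-11*). C17C3.5 reached the filter only in the OP50 samples, with 303 and 661 counts against 5 and 20 with 2004. The nearest tested genes outside the cluster, ZK177.1 (0.34, adjusted p = 0.167, edgeR) and C17C3.3 (-1.17, adjusted p = 0.105, edgeR), were not called. Whether the fall of *ins-11* is linked to that of its neighbours was not tested. Here and for the other clusters, the neighbouring genes were looked up after the members' values were seen. The median of the intestine markers was 0.39, and they ranged from -2.98 for *pgp-1* to 3.29 for *cpr-1*, a cathepsin B-like protease gene.

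The peptides best known for preventing dauer formation, DAF-28, INS-4 and INS-6, are DAF-2 agonists made in sensory neurons. *daf-28* (chromosome V, 19815133 to 19816454) was at 2.60 and 1.78 CPM with OP50 and 0.690 and 1.12 CPM with 2004. The foods did not overlap, and the fitted log2 change was -1.33 (SE 0.46, adjusted p = 0.0409, edgeR). The call rested on 2 samples: the adjusted p-value was 0.198 without OP50 replicate 1 and 0.187 without 2004 replicate 1. *ins-4* (ZK75.1) was at 0.696 and 1.39 CPM with OP50 and 0.518 and 0.367 CPM with 2004 (log2 fold change -1.27, SE 0.53, adjusted p = 0.0800, edgeR). The call was lost with DESeq2 (adjusted p = 0.183), library size alone, 0.5 CPM required in 1 sample, no filter and the replicate block. It was also lost without any of 3 samples, at -0.79 without OP50 replicate 2, -1.08 without 2004 replicate 2 and -1.47 without 2004 replicate 1. *ins-6* (ZK84.6) had 1.71 and 1.27 CPM with OP50 and 0.885 and 0.734 CPM with 2004. Its foods did not overlap either, but at -0.94 (SE 0.45, adjusted p = 0.117, edgeR) it did not pass the thresholds. Without OP50 replicate 2 it was called lower (-1.21, adjusted p = 0.0939). *daf-7*, the TGF-beta ligand gene of the ASI sensory neurons, which act in the same decision, had 3.86 and 3.62 CPM with OP50 and 1.75 and 1.25 CPM with 2004 (log2 fold change -1.38, SE 0.33, adjusted p = 0.00897, edgeR). It was the only called gene among the 3 tested sensory cilium and amphid markers. Of those not called, *che-3* was at -0.997 (SE 0.57, adjusted p = 0.185, edgeR) and *odr-4* at -0.017.

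*ins-4* and *ins-6* belong to a cluster of 6 genes within 22.8 kb of chromosome II (5988524 to 6011321). Its other tested members were *ins-3* and *ins-5*. *ins-3*, an agonist known from larval growth and germline proliferation, had 0.718 and 0.772 CPM with OP50 and 0.928 and 0.388 CPM with 2004. The 2004 samples lay on either side of the OP50 samples, and the fitted log2 change of -0.25 (SE 0.54, adjusted p = 0.738, edgeR) was within that spread. *ins-5* had 3.46 and 3.33 CPM with OP50 and 2.11 and 2.61 CPM with 2004, without overlap, at -0.57 (SE 0.32, adjusted p = 0.181, edgeR). The outer genes of the cluster, *ins-2* and *ins-20*, were not tested and had at most 10 counts in a sample. The nearest tested genes on either side were both called lower, B0034.5 at -4.01 (adjusted p = 0.00624, edgeR) and ZK84.1 at -1.69 (adjusted p = 0.0125, edgeR), and their link to the cluster was not tested. B0034.5 reached the filter only in the OP50 samples, with 27 and 42 counts against 0 and 4 with 2004. The summed level of the cluster was 6.67 and 6.85 CPM with OP50 and 4.66 and 4.21 CPM with 2004.

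A cluster of 7 genes within 25.4 kb of chromosome I (14012369 to 14037777) held 3 of the 9 genes called lower. *ins-27* (ZC334.11), the member with the highest mean level per length, had 5.07 and 5.62 CPM with OP50 and 2.07 and 1.25 CPM with 2004, or 5.35 ± 0.389 and 1.66 ± 0.579 CPM (SD, n = 2). Its change on the log2 scale was -1.75 (SE 0.32, adjusted p = 0.00216, edgeR), and it was called without any one of the 4 samples. *ins-28* (ZC334.9) had 1.59 and 1.60 CPM with OP50 and 0.712 and 0.518 CPM with 2004, at -1.43 (SE 0.44, adjusted p = 0.0270, edgeR). *ins-26* (ZC334.1) had 2.56 and 2.91 CPM with OP50 and 0.971 and 1.53 CPM with 2004, at -1.16 (SE 0.39, adjusted p = 0.0367, edgeR). In all 3 genes the OP50 samples were close to each other and the foods did not overlap. *ins-28* reached an adjusted p-value of 0.102 without 2004 replicate 2, and *ins-26* one of 0.227 without 2004 replicate 1. The remaining genes of the cluster, *ins-24*, *ins-25*, *ins-29* and *ins-30*, lay at or under 27 counts in every sample, were not tested, and their foods overlapped. The falls were thus measured in the 3 abundant genes of this cluster, and its summed level was 10.1 and 10.9 CPM with OP50 and 4.83 and 4.06 CPM with 2004. The nearest tested genes on either side, ZC334.7 (-0.85, adjusted p = 0.253, edgeR) and Y71A12C.2 (0.38, adjusted p = 0.491, edgeR), were not called.

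**Figure D3:**
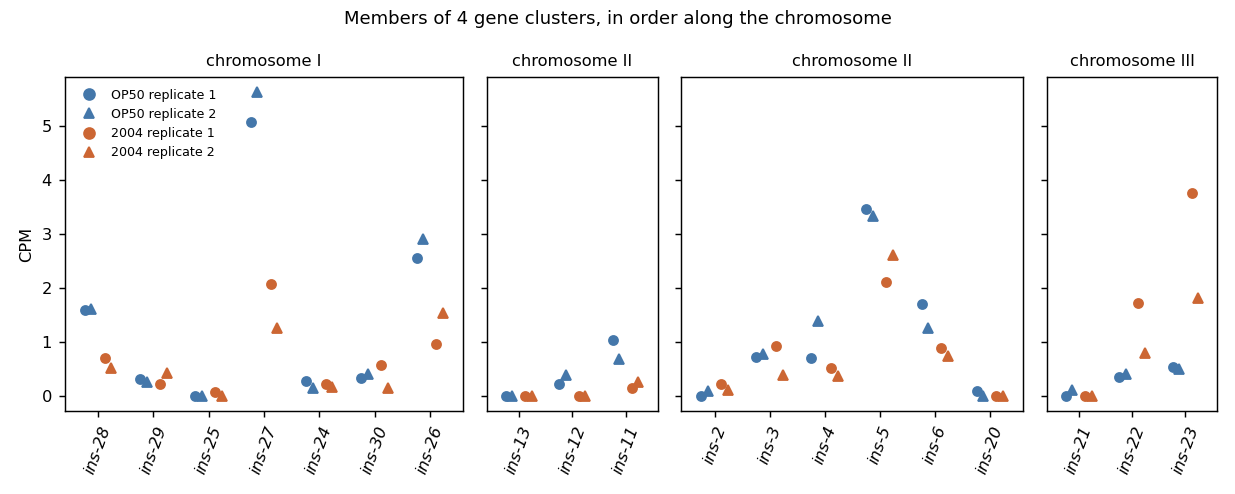
Level in CPM of the members of the 4 insulin-like peptide gene clusters with more than 2 genes, in their order along the chromosome, with 1 point per sample (OP50 on the left and 2004 on the right of each position). The abundant genes of the chromosome I cluster are lower with 2004, at 2.07 and 1.25 CPM against 5.07 and 5.62 CPM for *ins-27*, whereas *ins-22* and *ins-23* on chromosome III are higher.

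The 2 genes that were higher with 2004 lie next to each other, in the same orientation, in a cluster of 3 genes within 4.95 kb of chromosome III (10023752 to 10028697). *ins-23* (M04D8.3) had 24 and 25 counts with OP50 and 174 and 84 counts with 2004, or 0.539 and 0.495 CPM against 3.75 and 1.81 CPM. The OP50 samples were nearly equal, 2004 replicate 1 was the higher 2004 sample, and the foods did not overlap. Its change on the log2 scale was 2.35 (SE 0.46, adjusted p = 0.00326, edgeR), and it was called without any one of the 4 samples. *ins-22* (M04D8.2), whose tagged protein is widely used to follow the release of dense core vesicles, had 16 and 21 counts with OP50 and 80 and 37 counts with 2004. Its change on the log2 scale was 1.63 (SE 0.54, adjusted p = 0.0343, edgeR), and without 2004 replicate 1, the higher of the 2004 samples for both genes, it was 1.05 with an adjusted p-value of 0.294. The first gene of the cluster, *ins-21*, had 6 counts in OP50 replicate 2 and 0 in the other samples. The nearest tested genes outside the cluster were *rgs-1* (log2 fold change -0.056, adjusted p = 0.932, edgeR) and M04D8.7 (-1.03, adjusted p = 0.194, edgeR), neither of which was called. Summed over the 3 genes, the level was 0.898 and 1.03 CPM with OP50 and 5.48 and 2.61 CPM with 2004.

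Among the peptides known or thought to act as antagonists of DAF-2, *ins-18* (T28B8.2, chromosome I, 8147427 to 8149651) was called lower and *ins-1* and *ins-17* were not called. INS-1 is among the peptides most like human insulin, and INS-17 and INS-18 are known to promote dauer formation. *ins-18* had 2.49 and 1.703 CPM with OP50 and 1.23 and 0.928 CPM with 2004 (log2 fold change -1.03, SE 0.42, adjusted p = 0.0741, edgeR). The call was lost without OP50 replicate 1 (-0.62), without 2004 replicate 2 (-0.88) or without 2004 replicate 1 (-1.18). It was also lost with DESeq2 (adjusted p = 0.121), limma-voom, library size alone and the replicate block, as numbered or crossed. *ins-17* (F56F3.6) had 6.71 and 7.56 CPM with OP50 and 4.81 and 5.11 CPM with 2004, the most precise values of the family. The foods did not overlap, and the fitted log2 change was -0.57 (SE 0.24, adjusted p = 0.0853, edgeR), under the 2-fold threshold. *ins-1* (F13B12.5), which acts in learned responses to salt and temperature, had 0.718 and 0.970 CPM with OP50 and 1.06 and 0.324 CPM with 2004. Its 2004 samples enclosed the OP50 samples, with (log2 fold change -0.36, SE 0.58, adjusted p = 0.645, edgeR).

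3 tested genes remain. *ins-37* (F08G2.6, chromosome II, 13835101 to 13836107) had 28 and 74 counts with OP50 and 8 and 15 counts with 2004 (log2 fold change -2.08, SE 0.62, adjusted p = 0.0231, edgeR). Without OP50 replicate 2 it was -1.45 (adjusted p = 0.171). Its exons overlap the snRNA gene F08G2.9, which had at most 6 counts in a sample, and the ncRNA gene R05D7.8, which had 0. *ins-19* (T10D4.13) had 0.718 and 2.89 CPM with OP50 and 0.388 and 1.45 CPM with 2004. In both foods replicate 2 was several times replicate 1, the foods overlapped, and the fitted log2 change was -0.96 (SE 0.70, adjusted p = 0.292, edgeR). It would have been called lower without 2004 replicate 2 (-2.27, adjusted p = 0.00368) or without OP50 replicate 1 (-1.59, adjusted p = 0.0233), and it was 0.25 without OP50 replicate 2. *ins-34* (F52B11.6) had 2.87 and 1.23 CPM with OP50 and 2.33 and 1.49 CPM with 2004, at -0.19 (SE 0.47, adjusted p = 0.769, edgeR). It overlaps exons of *nkcc-1* on the opposite strand, which had 4531 to 5252 counts in a sample against 62 to 128 for *ins-34*. Neither source says that counting was done by strand, so reads of the 2 genes cannot be told apart.

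**Figure D4:**
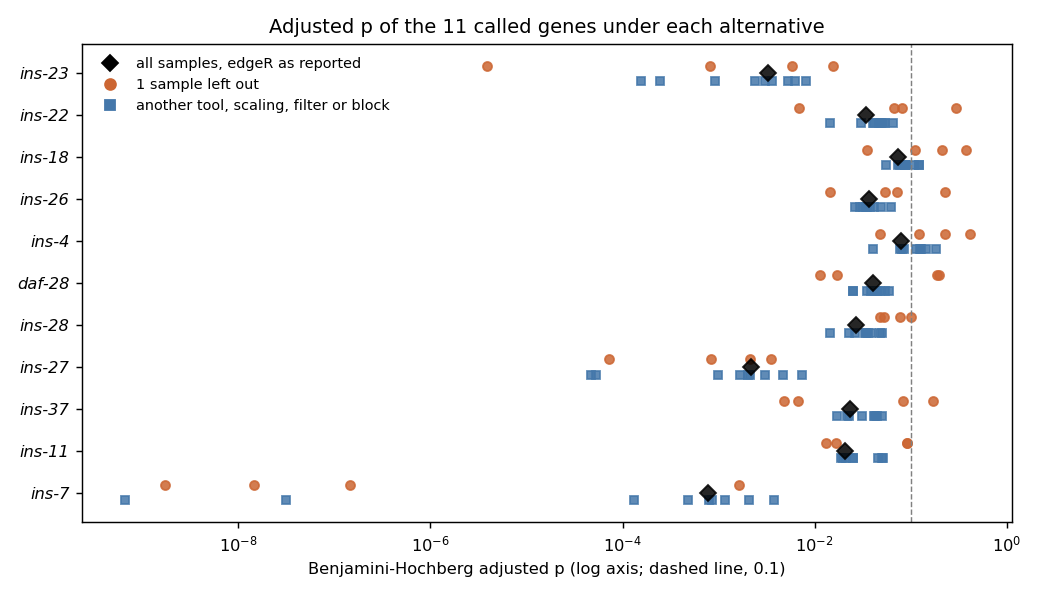
Benjamini-Hochberg adjusted p of the 11 called genes on a log axis, as reported, with 1 sample left out, and with another tool, scaling, filter or replicate block. *ins-7*, *ins-11*, *ins-23* and *ins-27* stay under 0.1 in all of these fits that tested them, whereas the points of *ins-4* and *ins-18* lie on both sides of it.

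The 21 genes that did not reach the filter split into 5 at 0 in every sample (*ins-8*, *ins-13*, *ins-15*, *ins-16* and *ins-31*), 7 with fewer than 10 counts in every sample and 9 with more in at least 1 sample. *ins-35*, which encodes an intestinal peptide, had 19 and 8 counts with OP50 and 19 and 68 counts with 2004. Only 2004 replicate 2 stood above the others, and with 0.5 CPM required in 1 sample its log2 fold change was 1.64 (adjusted p = 0.148, edgeR). *ins-33*, known with *ins-3* from larval germline proliferation, had 21 and 29 counts with OP50 and 14 and 23 counts with 2004, which overlap. *ins-39*, a gene of the thermosensory AFD neurons, had 9 and 14 counts with OP50 and 5 and 3 counts with 2004. *ins-36* had 6 and 16 counts with OP50 and 2 and 0 with 2004, and its exons overlap Y53H1A.7 on the opposite strand. These last 2 genes were lower in both 2004 samples but were not detectable as different at this depth, with adjusted p-values of 0.523 for *ins-39* and 0.314 for *ins-36* without a filter (edgeR). *ins-2* had 0 and 5 counts with OP50 and 10 and 5 with 2004, *ins-24* had 12 and 7 against 10 and 8, *ins-29* had 14 and 13 against 10 and 20, and *ins-30* had 15 and 21 against 27 and 7. *ins-9*, *ins-10*, *ins-14*, *ins-20*, *ins-21*, *ins-25* and *ins-32* had at most 7 counts in a sample. Without a filter, *ins-12* was the single one of these 21 genes to be called.

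Genes that act downstream of the peptides were compared in the same fit. Of the 13 listed genes from the receptor to DAF-16, 0 were called higher and 1, *akt-2*, a kinase gene of the cascade, was called lower, with 17.6 and 20.8 CPM against 9.45 and 9.41 CPM (log2 fold change -1.07, SE 0.18, adjusted p = 0.00140, edgeR). Over all genes tested, 14.8% were called lower. The median of the list was 0.15. *daf-2*, the receptor gene, had 114 and 97.0 CPM with OP50 and 164 and 164 CPM with 2004 (log2 fold change 0.58, SE 0.16, adjusted p = 0.0160, edgeR), below 2-fold. *age-1*, the catalytic subunit of phosphoinositide 3-kinase, was at 0.75 (SE 0.14, adjusted p = 0.00241, edgeR). *daf-16* was at 0.58 (SE 0.15, adjusted p = 0.0126, edgeR) and *akt-1* at -0.037 (SE 0.14, adjusted p = 0.845, edgeR).

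Genes for the processing and release of peptides had a median of -0.73 over the 13 listed genes, of which 2 were called lower and 0 higher, beside 14.8% and 7.55% of all genes tested. The share called lower was thus close to that of all genes, while 10 of the 13 lay below 0 (51.4% of all genes tested). Those called lower were *kpc-1*, a furin-like convertase gene that acts on insulin-like peptide precursors, at -1.06 (SE 0.16, adjusted p = 0.000642, edgeR), and *unc-13*, which primes vesicles for release, at -1.87 (SE 0.24, adjusted p = 0.000242, edgeR). *egl-3*, the neuronal proprotein convertase gene, had 48.5 CPM in both OP50 samples and 30.98 and 27.8 CPM with 2004 (-0.78, SE 0.13, adjusted p = 0.00126, edgeR), below 2-fold. Also lower by less than 2-fold were *sbt-1* (-0.97), *egl-21* (-0.78), *ida-1* (-0.73) and *asna-1* (-0.58), with adjusted p-values from 0.00127 to 0.00717 (edgeR). *hid-1*, a gene of dense core vesicle formation, lay in the opposite direction, at 0.79 (SE 0.19, adjusted p = 0.00846, edgeR).

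The other 2 neuropeptide families had medians near that of the insulin-like peptide genes. The 30 tested of 31 FMRFamide-like peptide genes had a median of -1.04, with 16 called lower and 0 higher (14.8% and 7.55% of all genes tested), and their log2 fold changes ranged from -1.997 to -0.074. The 55 tested of 71 neuropeptide-like protein genes had a median of -0.81, with 17 called lower and 1, *nlp-34*, called higher at 1.09, beside the same shares of all genes. Among the genes called lower, *flp-20* and *nlp-58* reached the filter only in the OP50 samples. The tested insulin-like peptide genes had a wider range than either, from -3.01 to 2.35. Whether the insulin-like peptides differ from these other neuropeptide families was not tested.

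**Figure D5:**
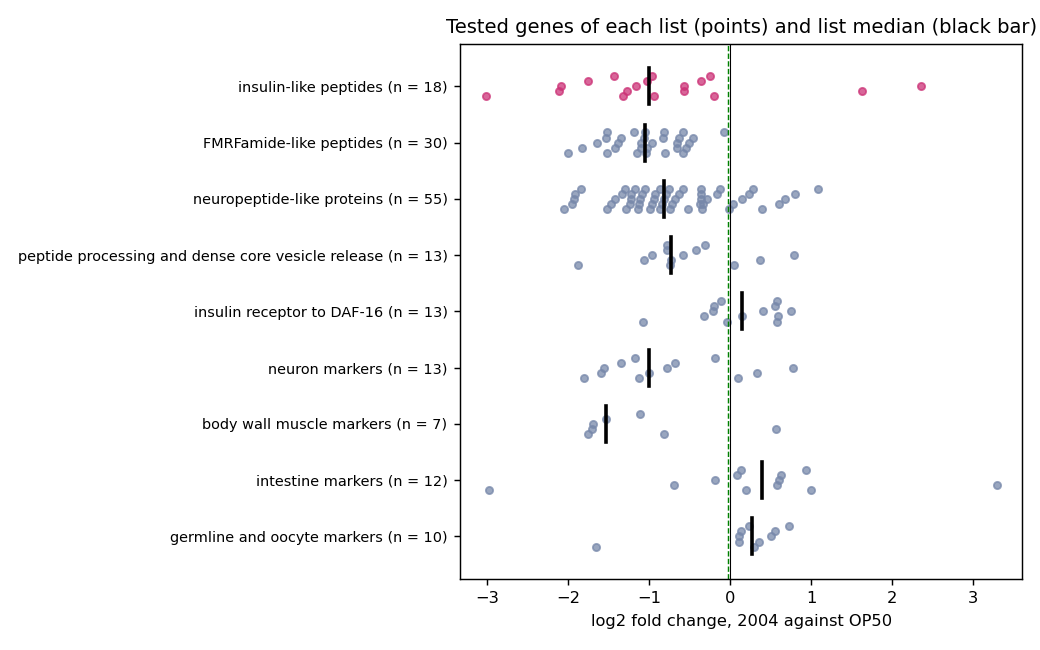
Log2 fold change of every tested gene of the insulin-like peptides and of 8 other lists (points) with the list median (black bar), in animals fed 2004 against animals fed OP50, n = 2 samples per food, with a dashed line at the median of all genes tested. The insulin-like peptides (median -0.99), FMRFamide-like peptides (-1.04) and neuron markers (-1.004) lie at similar medians, while the list from the receptor to DAF-16 lies at 0.15.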

How the data were processed

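Total RNA of entire bodies was sequenced in 4 samples, 2 per food. The authors aligned trimmed reads to WBcel235 with HISAT2 2.1.0 and counted them with StringTie 2.1.1 (per the labels' processing notes and the methods). The deposited values are the authors' estimated counts per transcript, whole numbers without normalization. The annotation release and strandedness are not given in the sources used here. Of the 57834 transcripts, 57509 (99.4%) matched a gene of Ensembl release 115, and counts were summed per gene. Coordinates and exonic lengths are those of that release.

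The test was edgeR 4.0.16 (glmQLFit, glmQLFTest, TMM) in R 4.3.3, with standard errors from the F statistic. limma 3.58.1 (voom) and DESeq2 1.42.0 were alternatives, beside other scalings, filters and thresholds, a replicate block, and each sample left out. The members and gene lists were chosen with earlier results of these data known. Named were all tested members, untested members with 10 or more counts in a sample, and the peptides of best known role. Replicate libraries of a food were not duplicates, with a chi-square of their counts of 83.1 (OP50) and 35.7 (2004) per degree of freedom.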

Additional observations from a re-analysis of the deposited data

How the results depend on the processing

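Beside the 9 lower and 2 higher calls among the insulin-like peptide genes, 7 to 9 were lower and 2 higher with DESeq2, limma-voom, the other scalings, the other filters and an adjusted p-value under 0.05. With glmTreat against 2-fold, 2 were lower and 1 higher (over all genes, 670 and 333). With 1 sample left out, 5 to 8 were lower and 1 to 2 higher, where the lone sample of a food is assumed to vary like the others. The fewest were called without 2004 replicate 1 (5 and 1). These counts are not always of the same genes: without a filter *ins-12* was called and *ins-4* was not, *ins-19* was called without OP50 replicate 1 or 2004 replicate 2, and *ins-6* without OP50 replicate 2. The median of -0.99 ranged from -0.99 to -0.77 with 1 sample left out, and was -0.94 with 0.5 CPM in at least 1 sample and -0.75 with 10 counts in every sample, where other sets of genes were tested. The first of these filters added *ins-30*, *ins-33* and *ins-35*. In the second, *ins-29* and *ins-33* took the place of *ins-11* and *ins-37*. The ratio of summed CPM was 0.66 without *ins-7*, an alternative chosen after seeing the data.

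On transcripts as deposited, 2 were called lower (*ins-7* and *ins-27*) and 1 higher (*ins-23*), beside 7.13% and 4.24% of all transcripts. These fell to 1 lower with library size alone, to 0 and 0 with the replicate block and to 0 and 0 without any single sample.

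The sign of some genes that were not called turned when a sample was left out. *ins-1* ranged from -1.36 to 0.23 and *ins-3* from -0.92 (both without 2004 replicate 1) to 0.22 (both without 2004 replicate 2). *ins-34* was at 0.058 without 2004 replicate 2, and ranged from -0.73 without OP50 replicate 2 to 0.67 without OP50 replicate 1. *ins-19* ranged from -2.27 without 2004 replicate 2 to 0.25 without OP50 replicate 2. The cause was not tested.

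Deviations of samples with the same replicate number correlated at -0.13 across genes, so the numbers were not taken as pairs. With the replicate block, 7 members were lower and 2 higher, and with the numbers crossed, an alternative added after seeing the data, 8 and 2. Depth limits the 21 untested genes, at most 68 counts in a sample.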
